A study of Homo sapiens with 32 samples.

Results

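The G2/M and mitosis genes of SK-N-BE(2) cells were followed over a time course of treatment with cannabidiol (CBD), a cannabinoid of the hemp plant. They are 45 genes, chosen by name as regulators, motors and structural proteins of mitosis, with earlier results of these data known. All 45 were found among the 22610 gene entries of the expression table. SK-N-BE(2) is an established human neuroblastoma line. Transcripts were sequenced at 4 times after the start of treatment (3, 6, 12 and 24 h), in cultures given CBD at 20 µM and in cultures given only the 0.1% ethanol that served as its vehicle, with 4 replicates in each of 8 groups and 32 samples in all. Cells were plated in 6-well dishes the day before treatment, and vehicle cultures of the same time served as the control at each time point. One dose and 1 cell line were used, and the labels do not say whether replicates came from separate days, so p-values measure the spread between these samples, which may be technical. Values are FPKM, read counts scaled by the authors for transcript length and library size, which allow levels to be compared between genes because of the scaling for length.

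Cells enter mitosis when CDK1, bound to cyclin A or cyclin B, is activated at the G2/M boundary. Aurora and Polo-like kinases, kinesin motors and the kinetochore then build the spindle and attach chromosomes to it, the spindle checkpoint holds anaphase back until attachment is complete, and the anaphase-promoting complex with CDC20 ends mitosis by marking cyclin B and securin for destruction. Transcripts of these genes are low in G1 and accumulate from late S phase into G2, and many of their promoters hold an element called the cell cycle genes homology region (CHR), often placed downstream of CCAAT boxes, whereas genes of DNA replication peak earlier and often carry E2F sites.

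Promoter sequences were searched for features that the 45 genes share and that their selection did not use. RefSeq start-site windows (GRCh38.p14) running from 250 bases before to 50 bases after a start were available for 39 of the 45 genes. AURKA, TTK, BIRC5, BUB3, UBE2C and TPX2 had no entry. A CHR, searched as TTTGAA or TTTAAA on both strands, lay in the window of 36 of these 39 genes (92.3%), against 27.9% of all 27305 genes with a window and 6 of 39 genes of a 47-gene S-phase list. A list of 55 other mitosis genes had it in 24 of 41 windows (58.5%) and a list of 25 G2/M control genes in 12 of 20, so it was not confined to the members. It lay within 50 bases of the start in 32 of the 39 members, compared with 9.41% of all genes. CCAAT, on either strand, was found in 32 of the 39 members, 27 of 41 other mitosis genes, 24 of 39 S-phase genes and 39.7% of all genes. Within 50 bases of the start, 11 members and 13 S-phase genes had it. E2F, searched as TTTCCCGC or TTTGGCGC on both strands, was found in 2 of 39 members, 19 of 39 S-phase genes and 2.75% of all genes. The CHR and CCAAT matches in the printed windows do not overlap. These are letter matches in 1 window size, given with no test, and CCNA2, BUB1 and AURKB are the 3 members whose windows lacked a CHR.

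Windows from 150 bases before to 20 bases after the start are shown for 6 members, chosen after their values were seen: KIF20A and PLK1, called lower at 6 and 12 h, the B-type cyclins CCNB1 and CCNB2, SPC25, with the deepest called fall at 24 h, and CDC20, the 1 called higher. CHR and CCAAT matches are in capitals, with a CCAAT on the other strand reading ATTGG.
KIF20A: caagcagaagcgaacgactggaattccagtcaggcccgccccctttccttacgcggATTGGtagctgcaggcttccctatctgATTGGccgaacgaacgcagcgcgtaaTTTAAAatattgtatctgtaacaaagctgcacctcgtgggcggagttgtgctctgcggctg
PLK1: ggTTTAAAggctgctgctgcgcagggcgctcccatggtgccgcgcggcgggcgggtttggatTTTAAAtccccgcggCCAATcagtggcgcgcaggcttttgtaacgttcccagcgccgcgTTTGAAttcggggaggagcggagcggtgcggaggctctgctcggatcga
CCNB1: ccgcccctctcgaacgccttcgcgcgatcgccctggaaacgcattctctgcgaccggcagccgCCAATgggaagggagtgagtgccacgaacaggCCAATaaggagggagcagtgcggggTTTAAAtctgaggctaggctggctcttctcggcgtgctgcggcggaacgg
CCNB2: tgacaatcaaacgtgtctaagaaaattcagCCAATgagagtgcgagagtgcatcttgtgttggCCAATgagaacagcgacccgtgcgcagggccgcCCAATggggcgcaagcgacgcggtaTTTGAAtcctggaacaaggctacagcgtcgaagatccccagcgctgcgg
SPC25: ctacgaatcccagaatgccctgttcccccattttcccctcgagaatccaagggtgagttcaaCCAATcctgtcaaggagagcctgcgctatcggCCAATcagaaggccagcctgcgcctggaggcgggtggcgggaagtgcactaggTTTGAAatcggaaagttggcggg
CDC20: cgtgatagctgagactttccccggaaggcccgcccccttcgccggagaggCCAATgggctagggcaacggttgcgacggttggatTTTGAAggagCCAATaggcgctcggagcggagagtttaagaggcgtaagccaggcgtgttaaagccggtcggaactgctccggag
For contrast, the first listed window of UHRF1, the S-phase gene with the deepest fall at 24 h, has a CCAAT match and an E2F match on the other strand in capitals.
UHRF1: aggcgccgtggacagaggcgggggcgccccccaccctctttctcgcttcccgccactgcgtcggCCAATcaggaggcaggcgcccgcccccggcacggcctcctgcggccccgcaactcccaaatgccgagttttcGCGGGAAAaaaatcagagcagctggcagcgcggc

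The windows lie at chr5:138178962-138179131, plus strand for KIF20A, chr16:23678739-23678908, plus strand for PLK1, chr5:69167000-69167169, plus strand for CCNB1, chr15:59104996-59105165, plus strand for CCNB2, chr2:168890411-168890580, minus strand for SPC25, chr1:43358831-43359000, plus strand for CDC20 and chr19:4909351-4909520, plus strand for UHRF1, all on GRCh38.p14. In CCNB1 and CCNB2, the genes of the B-type cyclins, the CHR closest to the start began 30 and 29 bases upstream, and CCAAT matches stood 55 and 87 or 54, 87 and 120 bases upstream. PLK1 carried 3 CHR matches in this stretch, beginning at -148, -88 and -29, and KIF20A carried 1, at -41. In SPC25 the CHR began 3 bases upstream of the start, and in CDC20 it began at -65, between CCAAT matches at -100 and -55.

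All 45 members passed the filter of a mean of at least 1 FPKM that left 12621 genes for testing. Their means over the 32 samples ran from 10.8 FPKM for KIF18A, a kinesin that limits chromosome movement, to 338 FPKM for CKS1B, a small CDK-binding subunit. The neuroblastoma markers fixed for the line were all present, with mean levels such as 1760 FPKM for MYCN, 498 for HAND2 and 404 for PHOX2A. Of 8 mesenchymal markers, COL1A2, POSTN and PRRX1 averaged 0.00918, 0.0344 and 0.00116 FPKM, and 3 (COL1A1, DCN and LUM) averaged above 1 FPKM. Sequencing depth is not recorded in FPKM. Estimated from single-read steps of rarely detected genes, it ranged from 0.786 to 1.21 times that of the median sample.

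Mitotic transcripts were lower with CBD from 6 h on, by modest amounts. At 3 h, none of the 45 members passed the test (7 had an unadjusted p under 0.05 from limma), and the median difference between CBD and vehicle was -0.021 on the log2(FPKM + 1) scale used for all differences below. At 6 h, 18 of 45 were called, all lower with CBD, at a median over all members of -0.14. At 12 h, 22 were called, again all lower (median -0.12), and at 24 h 16 were lower and 1, CDC20, was higher (median -0.079). A gene was called at a Benjamini-Hochberg adjusted p under 0.01 within the comparison. The share of all 12621 genes called lower at the same threshold was 1.28%, 6.13%, 11.2% and 21.3% at 3, 6, 12 and 24 h, and the share called higher was 1.18%, 4.07%, 8.85% and 20.8%. The members' shares called lower were 40% at 6 h, 48.9% at 12 h and 35.6% at 24 h, while the median over all genes stayed between -0.005 and 0.007. In bulk RNA, fewer cells in G2 and mitosis and less transcript per cell cannot be told apart.

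Read sample by sample, the 4 CBD values lay below all 4 vehicle values for 1, 19, 31 and 19 members at 3, 6, 12 and 24 h. Over all genes tested the same held for 4.36%, 11.1%, 16.9% and 25.9%. At 24 h the CBD values of 2 members, CDC20 and ASPM, lay above all vehicle values, beside 25.1% of all genes. No member did so at 3, 6 or 12 h, beside 5.52%, 8.46% and 13.4% of all genes. At 12 h the members separated most often although their median difference was no larger than at 6 h. The spread between CBD samples was wider at 6 h, where the mean log2 level over the 45 members was 5.692, 5.661, 5.632 and 5.795 in replicates 1 to 4 (SD 0.071), than at 12 h (SD 0.023). Vehicle samples at 6 h had 5.853, 5.784, 5.853 and 5.857, so CBD replicate 4 exceeded vehicle replicate 2 and the groups met at that pair only. CBD replicate 1 at 3 h was also apart, at 5.644 against 5.78 to 5.808 in the other CBD samples, and without it the median difference at 3 h was 0.032 instead of -0.021.

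**Figure D1:**
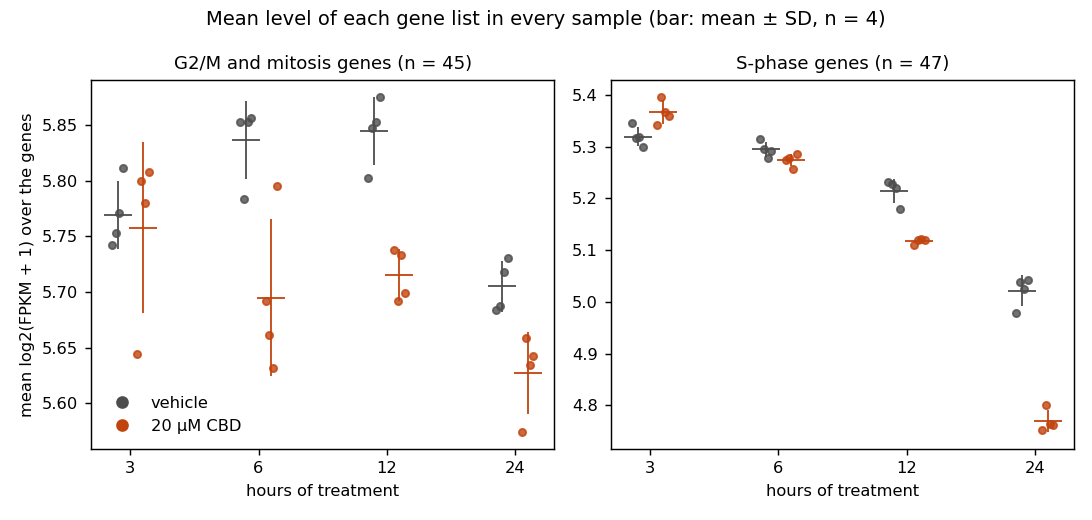
Each point is the mean log2(FPKM + 1) of 1 sample over the 45 G2/M and mitosis genes (left) or over 47 S-phase genes (right), by hours of treatment (horizontal axis, evenly spaced), with vehicle in grey and 20 µM CBD in orange, and bars give the mean ± SD (n = 4). The G2/M groups separate at 12 and 24 h and all but separate at 6 h, and the S-phase groups separate at 12 and 24 h with the wider gap at 24 h.

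The plot of list means shows both the treated and the untreated course. Across the members, 17 of 45 were never called lower, 28 were called lower at some time, and 9 were lower at 6, 12 and 24 h alike (CCNB2, AURKA, CDCA8, BUB3, KIF20A, KIF4A, KIFC1, NUSAP1 and NCAPH). PLK1, BUB1, INCENP, KIF2C, TPX2 and MKI67 were called at 6 and 12 h but not at 24 h, and CCNA2, CCNB1, BIRC5 and SPC25 at 12 and 24 h but not at 6 h. Whether these differences in timing are themselves beyond the error was tested separately and is given further on. The calls were not equally firm. Of the 18 calls at 6 h, 7 (PLK1, AURKA, AURKB, INCENP, CDCA8, KIF20A and KIFC1) held in each of 12 alternative fits at the same threshold and without any single sample. At 12 h, 17 of 22 did, all but BUB1, UBE2C, KIF2C, NCAPH and MKI67, and at 24 h 7 of 17 did (CCNB1, CCNB2, BIRC5, MAD2L1, SPC25, KIF4A and NCAPH).

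**Figure D2:**
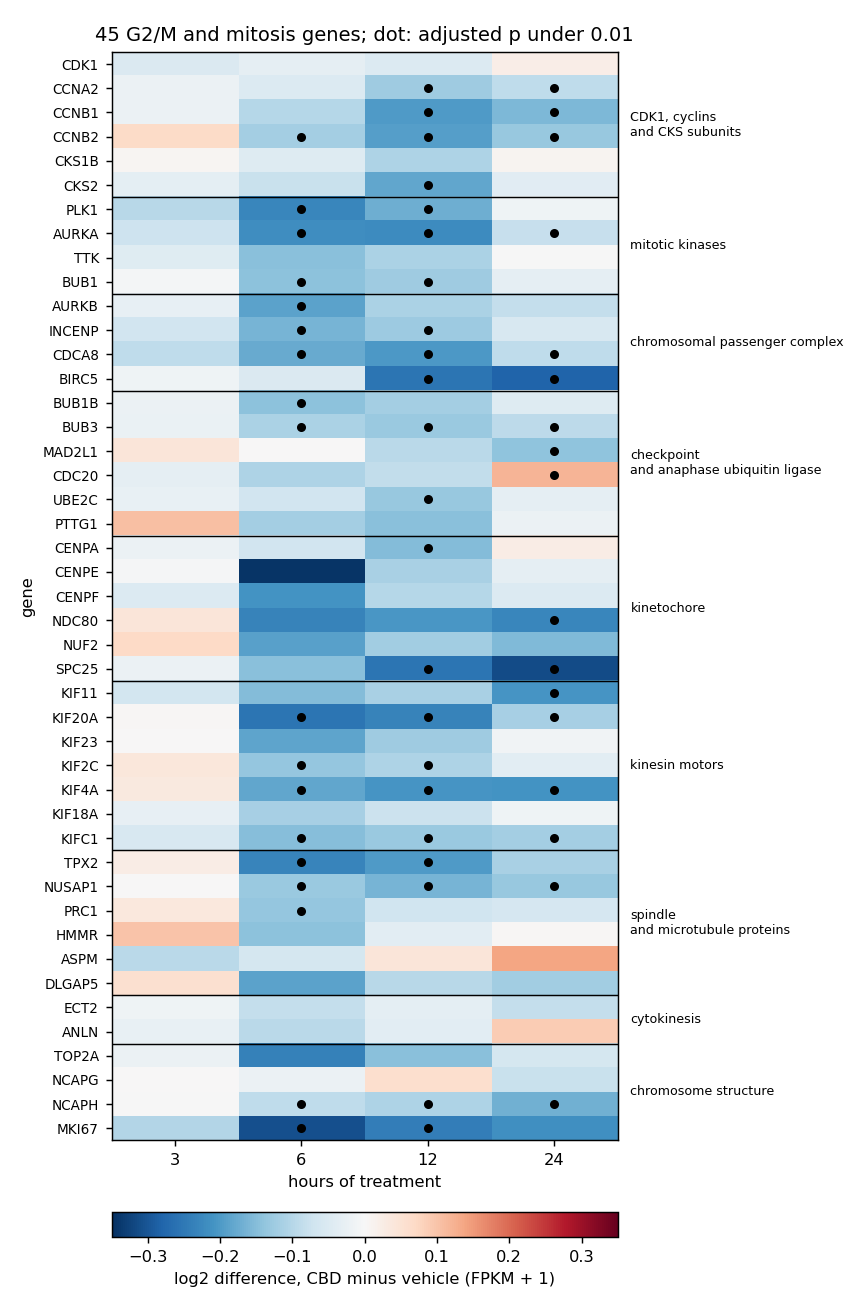
Rows are the 45 genes grouped by role, columns are hours of treatment, colour is the log2 difference in FPKM + 1 between CBD and vehicle (blue lower, red higher with CBD), and a dot marks an adjusted p under 0.01. Of the 45 cells, 44 are blue at 6 h, 43 at 12 h and 38 at 24 h, and CDC20 at 24 h is the only dotted red cell.

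Among CDK1 and its partners, the B-type cyclins fell while the kinase itself did not pass the test. 1 of these 6 genes was called lower at 6 h (CCNB2, lost under 4 alternatives and without any 1 of 6 samples, adjusted p up to 0.0557 from limma), 4 at 12 h and 3 at 24 h. Of all genes, 6.13%, 11.2% and 21.3% were called lower at those times. CCNB1 encodes cyclin B1, the main activating partner of CDK1 in mitosis. Its FPKM at 12 h were 139, 132, 132 and 127 in the vehicle samples and 114, 115, 114 and 119 with CBD. All CBD samples were lower than all vehicle samples, with a difference of -0.20 (limma, standard error 0.029 and adjusted p = 6.36e-06). At 6 h the values were 129, 123, 124 and 126 against 116, 122, 113 and 118, without overlap but short of the threshold at -0.10 (standard error 0.029, adjusted p = 0.0155). At 24 h they were 109, 114, 116 and 113 against 99.8, 105, 97.4 and 103, again without overlap, with a difference of -0.16 (standard error 0.029, adjusted p = 4.67e-05). At 3 h the vehicle samples had 127, 122, 124 and 123 and the CBD samples 116, 126, 123 and 124, which overlapped. CCNB2 changed by -0.12, -0.19 and -0.13 at 6, 12 and 24 h, and CCNA2, the cyclin A of late S and G2, by -0.12 at 12 h and -0.090 at 24 h.

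CDK1 itself had 100.4, 99.4, 104 and 105 FPKM in vehicle and 98.4, 99.2, 97.04 and 105 with CBD at 6 h, and 90.1, 93.1, 93.5 and 95.2 against 92.6, 95.3, 93.03 and 96.9 at 24 h. The groups overlapped at both times. At 3 h the values were 99.8, 101, 102 and 103 against 89.2, 96.95, 100.2 and 106, with CBD replicate 1 the lowest of the 8. At 12 h they were 99.9, 99.6, 101 and 103 against 97.2, 97.5, 98.3 and 98.0, without overlap, but the difference of -0.047 had an adjusted p of 0.321 from limma. Of the CKS subunits, which dock CDK1 to its substrates, CKS2 was lower at 12 h (-0.18) and CKS1B was not called, with -0.046, -0.11 and 0.008 at 6, 12 and 24 h.

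The mitotic kinases were lower mainly at 6 and 12 h. 3 of 4 were called lower at 6 h, 3 at 12 h and 1 at 24 h, beside 6.13%, 11.2% and 21.3% of all genes. PLK1 (Polo-like kinase 1), which drives centrosome maturation and mitotic entry, stood at 80.2, 81.4, 76.8 and 76.2 FPKM in vehicle and 66.7, 68.8, 68.0 and 64.4 with CBD at 6 h. The lowest vehicle sample exceeded the highest CBD sample, and the mean was 14.8% lower, a difference of -0.23 (limma, standard error 0.035 and adjusted p = 2.77e-05). At 12 h the difference was -0.17 (standard error 0.035, adjusted p = 0.000427), and at 24 h it was -0.014, with vehicle at 68.3 ± 0.539 and CBD at 67.7 ± 3.23 (SD, n = 4). AURKA, the kinase of spindle poles, changed by -0.22, -0.22 and -0.082, and BUB1, a kinase of the spindle checkpoint, by -0.14 and -0.12 at 6 and 12 h, both calls lost under some alternatives (adjusted p up to 0.0471 from limma). TTK, which starts checkpoint signalling at kinetochores, was not called, with -0.15 at 6 h (adjusted p = 0.141).

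Of the chromosomal passenger complex, which corrects faulty attachments, its kinase AURKB, its scaffold INCENP and CDCA8 (borealin) were lower at 6 h (-0.19, -0.16 and -0.18), and BIRC5 at 12 and 24 h. Of the 4 genes, 3 were called lower at 12 h and 2 at 24 h, beside 11.2% and 21.3% of all genes. BIRC5 encodes survivin, and its gene lies at GRCh37 chr17:76210267-76221717. At 6 h its FPKM were 104, 103, 99.6 and 102 in vehicle and 96.2, 104, 99.4 and 93.8 with CBD, which overlapped (-0.050). At 12 h they were 106, 99.5, 98.9 and 93.8 against 78.95, 85.5, 81.5 and 87.01, and at 24 h 78.7, 84.5, 83.5 and 83.8 against 70.2, 67.8, 66.4 and 67.3. Both times the CBD samples lay wholly below, with differences of -0.26 (limma, standard error 0.04 and adjusted p = 2.02e-05) and -0.28 (limma, standard error 0.04 and adjusted p = 1.95e-06). That is a mean 17.8% lower at 24 h, in cultures whose vehicle level had itself gone from 99.6 ± 5.14 to 82.6 ± 2.63 FPKM (SD, n = 4).

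In the checkpoint and its target, the anaphase-promoting complex, 2 of 6 genes were called lower at 24 h and 1 higher. The shares of all genes were 21.3% and 20.8%, so these counts do not set the group apart at 24 h. At 6 and 12 h, 2 of 6 were called lower each time, beside 6.13% and 11.2% of all genes. BUB3, a checkpoint scaffold, was lower at 6, 12 and 24 h (-0.11, -0.13 and -0.091), BUB1B (the checkpoint protein BubR1) at 6 h (-0.14), UBE2C (the ubiquitin-conjugating enzyme of the complex) at 12 h (-0.13) and MAD2L1 (the checkpoint inhibitor Mad2) at 24 h (-0.14). CDC20, the activator of the complex, was the 1 member called higher with CBD. Its values at 24 h were 69.5, 72.6, 71.1 and 71.8 in vehicle and 75.4, 80.1, 78.2 and 75.8 with CBD, every CBD sample above every vehicle sample, and the difference was 0.12 (limma, standard error 0.031 and adjusted p = 0.00212). At 6 h they had been 86.4, 90.4, 83.3 and 84.7 against 80.3, 81.7, 80.2 and 77.2, every CBD sample below, at -0.11 (standard error 0.031, adjusted p = 0.013). At 12 h the CBD samples (79.9, 81.8, 81.8 and 81.3) again lay below those of vehicle (87.1, 87.8, 87.5 and 82.6). The level in CBD samples was thus 81.2 ± 0.894 at 12 h and 77.4 ± 2.22 at 24 h, while that in vehicle samples was 86.2 ± 2.46 and 71.2 ± 1.32 (SD, n = 4). The call at 24 h was lost without CBD replicate 2 (adjusted p = 0.0118). PTTG1, which encodes securin, was not called at any time, with -0.12, -0.15 and -0.019 at 6, 12 and 24 h.

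Kinetochore genes included the deepest called fall at 24 h and the widest errors. None of 6 passed the test at 6 h, although 6 of 6 estimates were below 0, from -0.34 for CENPE to -0.068 for CENPA, with standard errors between 0.026 and 0.15 and 5 unadjusted p-values under 0.05 from limma. SPC25 and NDC80 are subunits of the complex that grips microtubule ends. SPC25 had 25.2, 24.5, 25.8 and 25.5 FPKM in vehicle and 21.4, 21.2, 20.8 and 20.6 with CBD at 12 h, and 20.2, 20.8, 20.95 and 21.3 against 16.6, 16.5, 16.2 and 16.8 at 24 h. There was no overlap at either time, and the differences were -0.25 (limma, standard error 0.048 and adjusted p = 0.000166) and -0.31 (limma, standard error 0.048 and adjusted p = 3.76e-06), the latter a mean 20.5% lower. NDC80 had 16.95, 15.04, 16.5 and 17.3 against 13.3, 14.1, 14.1 and 13.99 at 24 h, without overlap, a difference of -0.23 (standard error 0.065, adjusted p = 0.00417) that missed the threshold without vehicle replicate 1, vehicle replicate 4 or CBD replicate 1 of that time (highest adjusted p over the alternatives 0.018). CENPA, the histone H3 variant of centromeres, was called at 12 h (-0.15), and was at 0.027 at 24 h. CENPE, a motor that carries chromosomes to the spindle equator, CENPF, a large coiled-coil protein, and NUF2, the partner of NDC80, were not called.

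Kinesin motors were among the most regular responders. 4 of 7 were called lower at each of 6, 12 and 24 h, beside 6.13%, 11.2% and 21.3% of all genes. KIF20A, a kinesin of the central spindle needed for cytokinesis, is at GRCh37 chr5:137514408-137523412 and had the deepest separated fall at 6 h. Its FPKM were 55.8, 54.5, 54.1 and 55.6 in vehicle and 45.99, 45.5, 43.9 and 48.4 with CBD, so that the groups were well apart, with a mean 16.5% lower and a difference of -0.26 (limma, standard error 0.033 and adjusted p = 2.22e-06). At 3 h the same gene was at 50.5 ± 0.899 and 50.7 ± 2.17 (SD, n = 4), a difference of 0.003. At 12 h the difference was -0.23 (standard error 0.033, adjusted p = 3.47e-06), and at 24 h -0.12 (standard error 0.033, adjusted p = 0.00371), the last call being lost when that time point was fitted alone and without vehicle replicate 3, vehicle replicate 4 or CBD replicate 1 (adjusted p up to 0.027). KIF4A, a chromosome-bound kinesin, was lower at the 3 later times (-0.18, -0.21 and -0.21), as was KIFC1, which clusters centrosomes (-0.15, -0.13 and -0.12). KIF2C, which removes tubulin from microtubule ends, was lower at 6 and 12 h (-0.14 and -0.11), and KIF11, the motor that separates spindle poles, at 24 h (-0.21). KIF4A at 6 h and KIF11 at 24 h each missed the threshold under 3 alternatives (adjusted p up to 0.0601 and 0.0246 from limma). KIF23, a motor of the cytokinetic midzone, and KIF18A were not called. KIF4A and PTTG1 have near-identical copies, KIF4B and PTTG2, with which their reads could be shared.

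Of the spindle proteins, TPX2, which activates Aurora A at spindle microtubules, had 88.7, 84.9, 86.3 and 87.02 FPKM in vehicle and 72.6, 72.2, 69.95 and 80.7 with CBD at 6 h (GRCh37 chr20:30327074-30389608). CBD replicate 4 lay closest to the vehicle samples but did not reach them, and the difference was -0.23 (limma, standard error 0.038 and adjusted p = 8.32e-05). It was -0.20 at 12 h and -0.11 at 24 h, when the groups overlapped. With 6 h fitted alone, TPX2 missed the threshold (adjusted p = 0.0166). NUSAP1, a microtubule bundler, was lower at 6, 12 and 24 h (-0.13, -0.16 and -0.13), and PRC1, which bundles the central spindle, at 6 h (-0.13). HMMR and DLGAP5, which bind spindle microtubules, and ASPM, a spindle-pole protein, were not called, and neither were the cytokinesis genes ECT2 (an activator of the GTPase RhoA) and ANLN (a scaffold of the contractile ring), whose differences at 6 h were -0.083 and -0.094. For ASPM at 24 h every CBD sample lay above every vehicle sample, at means of 33.01 and 29.89 FPKM. The difference was 0.139 (limma, standard error 0.096 and adjusted p = 0.232), larger than that of CDC20 but with a wider error.

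In chromosome structure, MKI67, the gene of the proliferation antigen Ki-67, had the largest called estimate at 6 h but not the cleanest. Its FPKM were 64.6, 58.7, 64.4 and 64.7 in vehicle and 48.8, 47.03, 48.4 and 59.4 with CBD. Vehicle replicate 2 and CBD replicate 4 overlapped, and the difference of -0.31 (standard error 0.069, adjusted p = 0.00209) missed the threshold without CBD replicate 2 or CBD replicate 3 of that time and with 6 h fitted alone (adjusted p up to 0.0413). At 12 h the values were 56.1, 61.9, 63.3 and 66.5 against 52.04, 50.1, 51.3 and 54.98, without overlap and with a difference of -0.24 (standard error 0.069, adjusted p = 0.00822). At 24 h they were 57.3, 57.1, 61.3 and 59.5 against 47.1, 52.04, 50.5 and 52.4, also without overlap, and -0.22 lay at the edge of the threshold on the side not called (adjusted p = 0.01 from limma). The 12 h call did not survive 5 of the alternatives or the removal of any 1 of 6 samples (adjusted p up to 0.0345). At 3 h, 51.2, 51.2, 57.2 and 63.7 in vehicle overlapped 46.5, 52.8, 53.97 and 53.99 with CBD.

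TOP2A, the topoisomerase that untangles sister chromatids, gave 204, 191, 218 and 218 FPKM in vehicle and 177, 161, 164 and 204 with CBD at 6 h. Its CBD replicate 4 sat among the vehicle samples, and -0.24 (standard error 0.07, adjusted p = 0.0169) was short of the threshold. At 3 h the samples had 172, 185, 191 and 200 against 156, 189, 194 and 201, at 12 h 199, 218, 215 and 231 against 202, 189, 199 and 189, and at 24 h 214, 209, 217 and 221 against 196, 211, 206 and 212. The groups overlapped at all 4 times. NCAPH, a condensin subunit with a small error, was lower at 6, 12 and 24 h (-0.088, -0.11 and -0.17), and NCAPG, a subunit of the same complex, was not called (-0.019, 0.059 and -0.079).

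**Figure D3:**
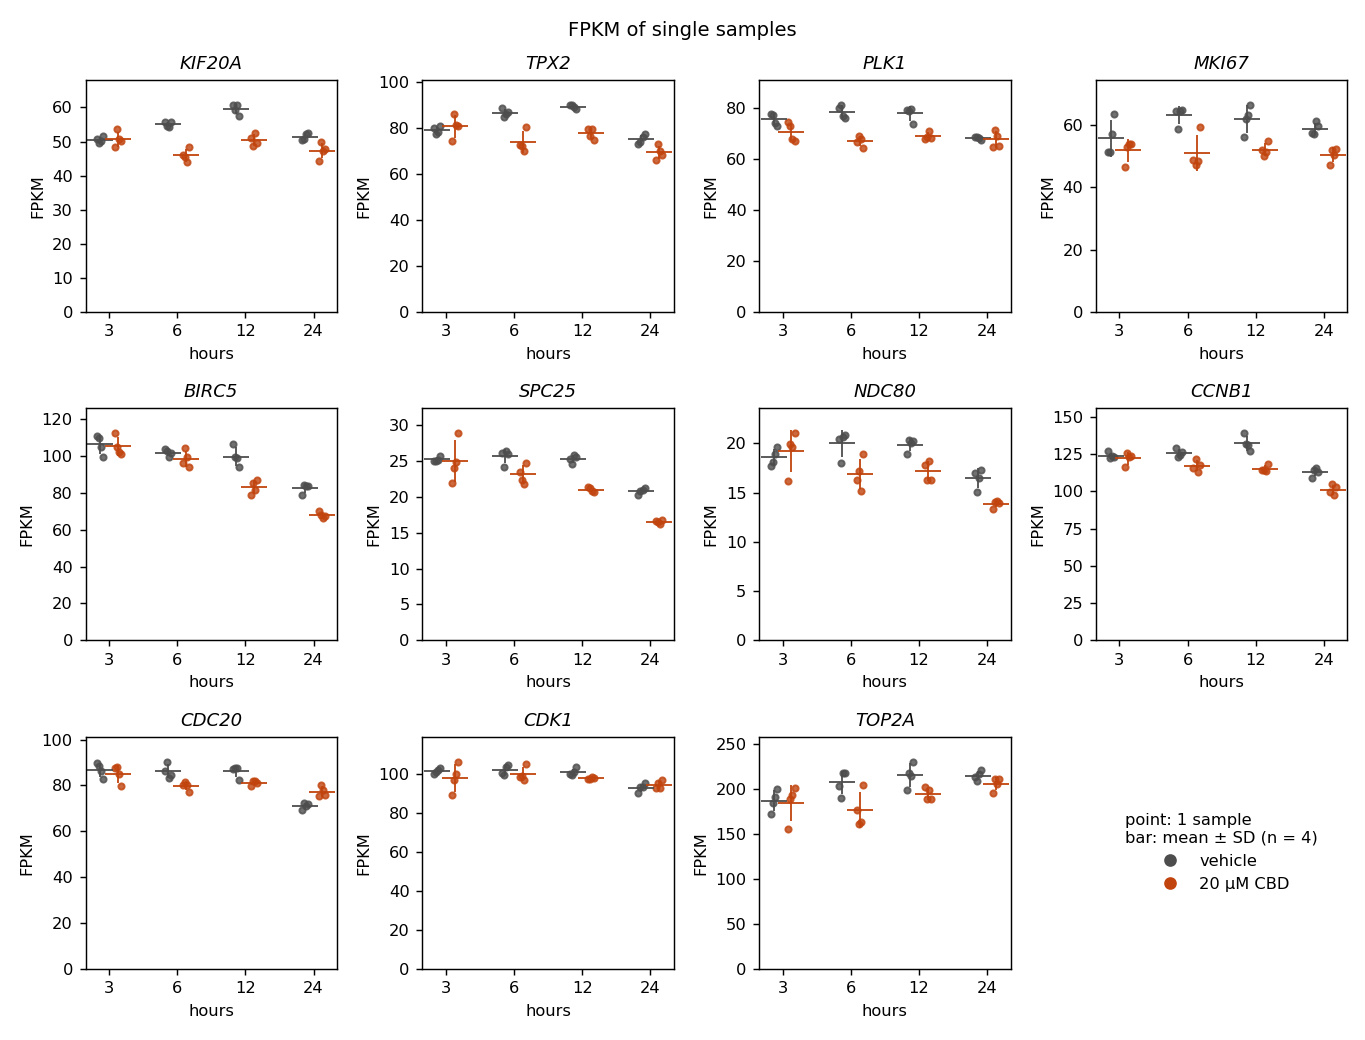
FPKM of single samples (vertical axis, from 0) for 11 of the 45 genes by hours of treatment, with vehicle in grey, 20 µM CBD in orange and bars for the mean ± SD (n = 4). KIF20A, TPX2 and PLK1 part at 6 and 12 h, BIRC5 and SPC25 part at 12 and 24 h, CDC20 changes order between 12 and 24 h, and CDK1 stays close to vehicle throughout.

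The size of the error differed between members and followed the length of their transcripts only in part. In the 5 members with a transcript of at least 7000 bases (BUB3, CENPE, CENPF, ASPM and MKI67) the SD of log2 values within groups had a median of 0.14, and in the other 40 it was 0.049. Among the long ones BUB3 had the narrowest spread, at 0.025, and CENPE the widest, at 0.212. The other 40 ran from 0.028 to 0.124. HMMR (3016 bases) and NUF2 (1964 bases), at 0.124 and 0.123, were wider than MKI67 at 0.1. An index of each sample, the median log2 deviation of all genes with such long transcripts minus that of genes of 1000 to 3000 bases, was -0.041, -0.087, -0.024 and 0.012 in the CBD samples at 6 h and -0.019, -0.038, 0.028 and 0.039 in vehicle. CBD replicate 4, the highest of its group in the members' mean, was also the highest in the index, and vehicle replicate 2, the lowest in the members' mean, was the lowest. At 3 h, CBD replicate 1 was lowest in both (-0.093). This did not hold in every group: CBD replicate 4 at 12 h had the highest index of its group (0.043) and a low members' mean (5.699), and CBD replicate 1 at 24 h had the lowest mean of its group (5.574) with an index of 0.064. Over the 32 samples, with all genes read from the same libraries, the correlation of a member's within-group deviation with that of the index ran from -0.77 for PLK1 to 0.8 for MKI67. With the index as a term of the model, an alternative chosen after seeing the data, 17 members were called at 6 h, 26 at 12 h and 18 at 24 h. Among the 40 shorter members, 16, 20 and 15 were called lower at 6, 12 and 24 h.

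The timing of the dip in the CBD difference was set against the 47 S-phase genes. They include helicase subunits, polymerases, nucleotide-synthesis enzymes and histone chaperones of replication. Like the members, they were chosen with earlier results of these data known. Most S-phase estimates reached their lowest point later. Their median difference between CBD and vehicle was 0.049, -0.022, -0.11 and -0.25 at 3, 6, 12 and 24 h, against -0.021, -0.14, -0.12 and -0.079 for the G2/M members. S-phase genes were called lower in 6 cases at 6 h, 25 at 12 h and 40 at 24 h, beside 6.13%, 11.2% and 21.3% of all genes. The 2 called at 3 h (CCNE1, cyclin E1, at 0.25, and CHAF1B, a histone chaperone, at 0.12) were both higher, beside 1.18% of all genes. Neither call held: each was lost under 3 alternatives, CCNE1 also without any 1 of 6 samples and CHAF1B without any 1 of 3 (adjusted p up to 0.0366 and 0.0964 from limma). The time of the lowest estimate was 6 h for 24 of 45 G2/M members, 12 h for 12, 24 h for 7 and 3 h for 2, and it was 24 h for 42 of 47 S-phase genes.

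**Figure D4:**
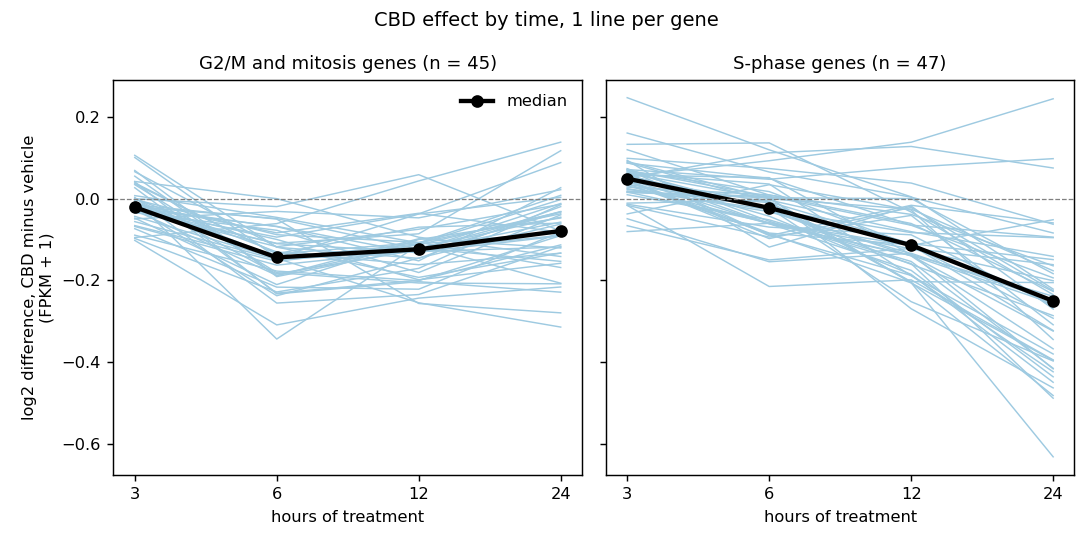
Each thin line is 1 gene's log2 difference in FPKM + 1 between CBD and vehicle (vertical axis) over hours of treatment (horizontal axis, evenly spaced), for the 45 G2/M and mitosis genes (left) and the 47 S-phase genes (right), and the black line is the median. The left median difference is lowest at 6 h and nearer 0 at 24 h, when the members' mean level in vehicle was also lower than at 12 h. The right median declines at each step to its lowest point at 24 h.

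These courses were tested gene by gene as the change of the CBD effect between times, which share the samples of the time in between. From 3 to 6 h the effect became lower for 5 members, beside 1.39% of all genes. They were KIF20A at -0.26 (standard error 0.046, adjusted p = 0.000983), TPX2 at -0.26 (standard error 0.054, adjusted p = 0.00439), KIF2C at -0.17, PRC1 at -0.17 and AURKA at -0.14, from limma. This count rested on single samples: it was 12 without CBD replicate 1 at 3 h and 1 without CBD replicate 2 at 3 h or CBD replicate 3 at 6 h. From 6 to 12 h no member's effect changed past the threshold in limma (6 had an unadjusted p under 0.05), while it became lower for 4 S-phase genes, beside 0.895% of all genes. From 12 to 24 h it became higher for 3 members, AURKA at 0.14 (standard error 0.03, adjusted p = 0.0016), CDC20 at 0.20 (standard error 0.043, adjusted p = 0.00175) and CENPA at 0.18 (standard error 0.037, adjusted p = 0.00124), beside 4.69% of all genes, and lower for 21 S-phase genes, beside 3.45%.

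Over the longer step from 6 to 24 h, a contrast added after the values at each time had been seen, the effect became higher for PLK1 at 0.21 (standard error 0.049, adjusted p = 0.00147), AURKA at 0.13 (standard error 0.03, adjusted p = 0.000972) and CDC20 at 0.23 (standard error 0.043, adjusted p = 0.000237), and lower for BIRC5 at -0.23 (standard error 0.057, adjusted p = 0.00308), from limma. Over all genes, 10.9% became higher and 9.67% lower. The median change was 0.087 over the members and -0.20 over the S-phase genes, of which 35 of 47 became lower. Most members therefore neither deepened nor recovered past the threshold between 6 and 24 h, and no test of the lists as wholes was made.

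Single S-phase genes show the contrast with PLK1 and KIF20A. UHRF1, a reader of hemimethylated DNA, was at 53.6 ± 1.57 FPKM in vehicle and 53.7 ± 1.45 with CBD at 6 h, and at 36.0 ± 1.13 and 22.9 ± 1.49 at 24 h (SD, n = 4), where the difference was -0.63 (limma, standard error 0.036 and adjusted p = 6.34e-14). FEN1, the flap endonuclease of lagging-strand synthesis, went from -0.055 at 6 h to -0.49 at 24 h. RRM2, the regulated subunit of ribonucleotide reductase, was at 0.006, -0.27 and -0.46 at 6, 12 and 24 h, and RPA2, a single-strand DNA binding protein, at -0.022, -0.25 and -0.40. POLA1 and POLD3, polymerase subunits, were already lower at 6 h (-0.21 and -0.15), calls lost with that time fitted alone. MCM5, a helicase subunit, was higher at 6 h (0.14), a call lost with that time fitted alone and without any 1 of 5 samples (adjusted p up to 0.024 from limma), and lower at 24 h (-0.23). UNG, a uracil glycosylase, was higher at 12 h (0.13), and CDT1, which loads the replicative helicase, at 24 h (0.24), calls lost without any 1 of 3 and any 1 of 2 samples, and for UNG also with 12 h fitted alone (adjusted p up to 0.0339 and 0.0117 from limma).

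Vehicle cultures were not constant, which bears on what each CBD difference was measured against. The mean log2 level over the members was 5.77, 5.837, 5.845 and 5.705 in vehicle at 3, 6, 12 and 24 h. With CBD it was 5.758, 5.695, 5.716 and 5.627. The level with CBD was thus lowest at 24 h, and the smaller difference at 24 h went with a lower vehicle level, not with a higher level in treated cultures. From 3 to 6 h, 3 members rose in vehicle (AURKB, KIF2C and PRC1, by 0.16, 0.11 and 0.094), beside 6.26% of all genes. From 6 to 12 h no member passed the test in limma (8 had an unadjusted p under 0.05), with 1.65% of all genes called lower. From 12 to 24 h, 30 of 45 members fell, beside 23.5% of all genes, at a median of -0.17. CDC20 fell most (-0.27), followed by SPC25 (-0.27), BIRC5 (-0.27) and AURKA (-0.27). S-phase genes fell in vehicle over the same interval in 38 of 47 cases, and 12 had already fallen from 6 to 12 h.

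Regulators of the G2/M program were read from a list of 25 transcription factors, CDK activators and inhibitors. At 6 h 1 was called, lower (4%, beside 6.13% of all genes). At 12 h 11 were lower and 1 higher (44% and 4%, beside 11.2% and 8.85% of all genes). At 24 h 11 were lower and 1 higher again (44% and 4%, beside 21.3% and 20.8%). FOXM1, a transcription factor of G2/M genes, had a difference of -0.12 (standard error 0.033, adjusted p = 0.0139) after 6 h, short of the threshold in limma, and was lower at 12 h (-0.14) and 24 h (-0.16). MYBL2, which acts on the same promoters with FOXM1, was called at 24 h (-0.24). The repressors E2F7 and E2F8 were lower at 12 h (-0.16 and -0.16) and 24 h (-0.26 and -0.17). E2F7 is a gene of low level, at means of 1.32 FPKM in vehicle and 0.94 with CBD at 24 h, which is 28.8% lower. The activator E2F1, counted among the S-phase genes and not in this list, was lower at 24 h (-0.23). CDC25B, a phosphatase that activates CDK1, was lower at 12 h (-0.15) and not called at 24 h (-0.039), as was WEE1, the kinase that inhibits CDK1 (-0.13 and -0.079). CDC25C was not called at any time, with -0.063 at 6 h and 0.077 at 24 h. CDKN1A, the CDK inhibitor p21, was higher at 12 h and 24 h, at 2.17 ± 0.124 FPKM with CBD against 1.63 ± 0.089 in vehicle at 24 h (SD, n = 4), a difference of 0.27 (limma, standard error 0.057 and adjusted p = 0.000263) in a gene of low level.

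A list of 55 other mitosis genes had 9 lower at 6 h, 18 at 12 h and 21 at 24 h, where 3 were higher. The shares lower were 16.4%, 32.7% and 38.2%, beside 6.13%, 11.2% and 21.3% of all genes. The share higher at 24 h was 5.45%, below the 20.8% of all genes. The medians of the list were -0.070, -0.099 and -0.085. At 24 h the deepest falls were those of ZWINT, a kinetochore protein (-0.42), STMN1, a tubulin-binding protein (-0.37), and CENPO, also of the kinetochore (-0.33). The 3 higher genes were NEK2, a centrosome kinase (0.16), SKA1, of the outer kinetochore (0.14), and HJURP, the chaperone of CENPA (0.083). NEK2 and HJURP resembled CDC20 in that their CBD difference was -0.15 and -0.16 at 12 h, and the change of the effect from 12 to 24 h was 0.31 (standard error 0.061, adjusted p = 0.000781) for NEK2 and 0.24 (standard error 0.033, adjusted p = 1.13e-05) for HJURP, from limma.

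Set against the promoter windows, the 36 members with a CHR had a median difference of -0.14 at 6 h and -0.061 at 24 h, and the 3 without one (CCNA2, BUB1 and AURKB) had -0.14 and -0.083, a description over too few genes for a comparison. Of the genes whose windows are printed, KIF20A, PLK1 and CCNB2 were lower at 6 h, CCNB1 and SPC25 from 12 h, and CDC20 was called only once, higher at 24 h.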

How the data were processed

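Polyadenylated RNA from 32 cultures was sequenced as single reads. Per the labels and the methods, the authors used Trimmomatic 0.36 for trimming, TopHat for alignment to hg19 and Cufflinks for quantification, and deposited FPKM values per gene, which keep no read counts. The authors' columns of group comparisons hold fold changes, p-values and test results and were not used. The labels and the methods name different library kits.

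The deposited FPKM values of 22610 entries were taken to log2(FPKM + 1), and 12621 genes with a mean of at least 1 FPKM were tested with limma 3.58.1 in R 4.3.3. One model with 8 group means supplied the CBD contrasts at each time, the changes of the CBD effect between times and the changes in vehicle, with moderated variances and a trend. Benjamini-Hochberg adjustment ran over all genes within each of 11 comparisons at a threshold of 0.01. Fold changes on this scale understate changes of low genes. Values of every sample were given for the 3 members with the largest called fall and rise at each time whose groups did not overlap, and for CCNB1, CDK1, TOP2A and MKI67. S-phase genes were named as the 2 largest called falls and rises at each time, other mitosis genes as the 3 largest at 24 h, and control genes by a fixed list. CDKN1B was named in addition to that list. The 45 members and the lists of S-phase, control and other mitosis genes were chosen with earlier results of these data known. Gene positions are from GENCODE release 44 lifted to GRCh37, and promoter windows from RefSeq on GRCh38.p14. Alternatives to scaling, filter, pseudocount, samples and model were run. Total depth cannot be read from FPKM, so its effect on precision enters only through the spread between replicates.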

Additional observations from a re-analysis of the deposited data

Results flagged for a closer look

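Of 104 groups of 4 values examined, 10 held 1 sample far from the other 3. Chance marks about 1 group in 20 where groups are independent. These groups share samples, and the members' mean includes genes also examined singly, so the count cannot measure an excess. Vehicle replicate 2 at 6 h was the lowest of its group in SPC25 (24.18 FPKM against 26.02 to 26.36), in MKI67 (58.71 against 64.4 to 64.65), in NDC80 (17.97 against 20.46 to 20.87) and in the mean log2 level of the 45 members (5.784 against 5.853 to 5.857). CBD replicate 1 at 3 h was lowest in MKI67 (46.5 FPKM against 52.76 to 53.99) and in the members' mean (5.644 against 5.78 to 5.808). CBD replicate 4 at 6 h was highest in MKI67 (59.44 FPKM against 47.03 to 48.78). The remaining samples were BIRC5 in vehicle replicate 1 at 24 h (78.74 FPKM), NDC80 in CBD replicate 1 at 24 h (13.31 FPKM) and CDC20 in vehicle replicate 4 at 12 h (82.57 FPKM), each the lowest of its group.

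The CBD effect differed between times, by the interaction contrasts of limma at an adjusted p under 0.01, for 5 members between 3 and 6 h, for 3 between 12 and 24 h and for 4 between 6 and 24 h. Among the S-phase genes it differed for 3, 4, 21 and 35 between 3 and 6 h, 6 and 12 h, 12 and 24 h, and 6 and 24 h. Over all 12621 genes tested it differed for 265, 294, 1028 and 2590 over the same steps. From 12 to 24 h, 6.67% of the members became higher and 0% lower, beside 4.69% and 3.45% of all genes. From 6 to 24 h, 6.67% of the members became higher and 2.22% lower, both below the 10.9% and 9.67% of all genes.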

How the results depend on the processing

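The median difference of the members stayed between -0.172 and -0.115 at 6 h, between -0.143 and -0.112 at 12 h and between -0.091 and -0.046 at 24 h over the alternatives and left-out samples, and ran from -0.043 to 0.042 at 3 h. Counts of members called that moved by over 1.5 times were as follows. At 3 h (0 called) there were 2 with quantile normalization, 1 with the long-transcript index as a term, 2 at an adjusted p under 0.05 and 0 to 1 without single samples, the 1 without CBD replicate 2. At 6 h (18) there were 7 with each time point fitted alone and 11 at 0.001, with 12 to 23 without single samples. At 24 h (17) there were 10 at 0.001 and 11 to 19 without single samples, 11 without CBD replicate 1.

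For the change of effect from 3 to 6 h (5) there were 9 at 0.05, 1 at 0.001 and 1 to 12 without single samples. These were 12 without CBD replicate 1 at 3 h, 1 without CBD replicate 2 at 3 h or CBD replicate 3 at 6 h, 2 without vehicle replicates 2 or 3 at 3 h or vehicle replicate 1 at 6 h, and 3 without CBD replicate 3 at 3 h or CBD replicates 1 or 2 at 6 h. From 6 to 12 h (0) there was 1 at 0.05. From 12 to 24 h (3) there were 5 with quantile normalization, 5 at 0.05 and 0 at 0.001. From 6 to 24 h (4) there were 9 with quantile normalization, 10 at 0.05 and 2 at 0.001. In vehicle from 3 to 6 h (3) there were 6 at 0.05, 0 at 0.001 and 1 to 6 without single samples, and from 6 to 12 h (0) there were 1 with the index, 2 at 0.05 and 0 to 1 without single samples.

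Of S-phase genes at 3 h (2) there was 1 with a mean of at least 5 FPKM, 0 with each time alone, 1 with relative depth as a term, 0 with the index, 6 at 0.05, 0 at 0.001 and 0 to 3 without single samples. At 6 h (7) there were 0 with each time alone, 12 at 0.05, 1 at 0.001 and 2 to 10 without single samples. From 3 to 6 h (3) there were 0 with quantile normalization, 1 with robust moderation, 9 at 0.05, 0 at 0.001 and 0 to 7 without single samples, and from 6 to 12 h (4) there were 14 at 0.05, 1 at 0.001 and 3 to 8 without single samples. The cause was not tested.

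Over all genes tested, samples of the same time with the same replicate number did not deviate together (correlations from -0.08 to 0.09 over 16 pairs). The long-transcript index did follow the numbers in part. At 3 h it rose from replicate 1 to 4 in both groups, from -0.052 to 0.087 in vehicle and from -0.093 to -0.03 with CBD. Replicate 4 had the highest index of every group but vehicle at 24 h, where replicate 3 had it (0.062 against 0.044). Whether the numbers mark a pairing was not tested further. With a replicate block the count fell to 1 member and 0 S-phase genes for the change of effect from 3 to 6 h, and was 1 member in vehicle from 6 to 12 h. The long-transcript index and the contrast from 6 to 24 h were added after seeing the data.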
